A study of Mus musculus with 2 samples.

Results

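The 10 core circadian clock genes Per1, Per2, Per3, Cry1, Cry2, Clock, Arntl, Nr1d1, Nr1d2 and Dbp were followed in newly made and in preexisting RNA of mouse embryonic stem cells. The genes were chosen by symbol, and their 17 protein-coding transcripts, by the GENCODE M21 annotation of GRCm38, were taken from a table that holds 49490 protein-coding transcripts of 21587 genes. GENCODE lists 24 protein-coding transcripts of these 10 genes. The 7 others had no values in the table used here and are missing from the gene sums. Of the 10 genes, 7 had a single transcript in the table.

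The cells were wild-type embryonic stem cells of the XY line DTCM23/49, depleted of feeder cells and grown with serum and leukemia inhibitory factor, without any mutation or other treatment to compare with. They received 200 µM 4-thiouridine (4sU), a uridine analogue that is built into RNA during transcription, for 10 min. RNA that carried 4sU was biotinylated and captured on streptavidin beads (the labeled library), and the RNA left in the supernatant was taken as the unlabeled library, which the labels call preexisting in one place and total in another. Both libraries belong to replicate 1, so each value rests on 1 library per pool, no test was possible, and the differences below could not be checked against replicates.

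The circadian clock is a feedback loop of transcription. Clock and Arntl (also called Bmal1) form a dimer that binds E-boxes and activates the Per, Cry, Nr1d and Dbp genes, and the Per and Cry proteins return to the nucleus and repress that dimer. The nuclear receptors Nr1d1 and Nr1d2 repress Arntl through ROR elements, and Dbp is an output factor that activates genes with D-boxes. Embryonic stem cells are known for lacking a running circadian oscillation, which appears upon differentiation, and cultures that are not synchronized give an average over phases.

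Upstream sequences of the clock genes are shown first, with their matches to elements of the kinds that the loop uses. Windows from 250 bases before to 50 bases after a start site, taken from RefSeq on GRCm38.p6, were found for 9 of the 10 genes (13 windows). Both strands were searched for the E-box (CACGTG), the E-prime box (CACGTT or AACGTG), the D-box (TTATGTAA or TTACGTAA) and the core of the ROR element (TAGGTCA). These motifs were present in 7.15%, 4.68%, 1.06% and 2.61% of all 32851 windows. The stretches below lie upstream of the RefSeq start site, read 5′ to 3′ on the strand of the gene, with each matching motif in capitals.
Per1, chr11:69098743-69098828, plus strand, E-box: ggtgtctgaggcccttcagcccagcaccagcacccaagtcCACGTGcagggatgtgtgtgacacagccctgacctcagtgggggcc
Cry1, chr10:85185069-85185173, minus strand, E-prime box and E-box: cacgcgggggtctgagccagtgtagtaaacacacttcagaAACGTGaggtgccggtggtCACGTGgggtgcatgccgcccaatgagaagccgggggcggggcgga
Cry2, chr2:92434190-92434275, minus strand, E-prime box: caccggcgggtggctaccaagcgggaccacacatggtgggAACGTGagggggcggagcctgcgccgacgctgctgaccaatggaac
Nr1d1, chr11:98775378-98775445, minus strand, E-prime box: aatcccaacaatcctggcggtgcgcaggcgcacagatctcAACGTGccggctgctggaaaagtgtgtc
Per3, chr4:151044776-151044910, minus strand, D-box in 2 copies: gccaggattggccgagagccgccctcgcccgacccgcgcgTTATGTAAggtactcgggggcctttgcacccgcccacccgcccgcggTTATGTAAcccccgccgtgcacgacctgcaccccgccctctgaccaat

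The E-box of Per1 began 166 bases before the start site, in an intron of the Per1 transcript ENSMUST00000101004, which starts farther upstream. In Cry1 the E-prime box and the E-box began 79 and 60 bases before the start site. The E-prime box began 166 bases upstream in Cry2 and 28 bases upstream in Nr1d1, and the 3 stretches of Cry1, Cry2 and Nr1d1 lay in no annotated exon or intron. The D-boxes of Per3 began 205 and 158 bases upstream, within an intron of a transcript of the neighbouring gene Camta1. The only other match was a ROR element core just after one of the start sites of Arntl. No motif of the 4 was in the windows of Clock, Nr1d2 and Dbp, and a match or its absence describes the letters of these windows only.

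The table gives each transcript an exon and an intron value in a relative abundance per length that its authors called TPM. Both columns add up to 10 times what TPM columns usually do, and TPM here means this deposited unit. The values of a gene are the sums over its protein-coding transcripts. Introns took 15.4% of the labeled and 6.26% of the unlabeled library. All 9 markers of pluripotency looked for were present, between 72.9 and 6580 TPM. The fibroblast markers, which feeder cells would carry, summed to 8.72 TPM in the labeled and 20.9 TPM in the unlabeled library, with 2 and 3 of 6 listed at 0. Of 7 markers of differentiated cells, 4 and 5 were listed at 0, and Pax6 made up nearly all of their sums of 70.6 and 70.8 TPM. The part of such cells in the clock gene values was not tested. The table keeps no read counts, so the depth of the libraries is not known and counting error cannot be given.

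Most clock genes were present at modest levels, and Per2 was close to 0. The exon value of each gene was lower in the labeled than in the unlabeled library, a direction that depends on the scaling of the libraries and that most genes shared, since 41.3% of 14127 genes were higher in the labeled library. With all biotypes summed, the exon ratio of Cry2 was 1.00. By the mean exon value of both libraries the order was Clock (123.9 TPM), Cry1 (37.9 TPM), Per1 (31.3 TPM), Nr1d1 (28.7 TPM), Nr1d2 (27.3 TPM), Cry2 (19.5 TPM), Arntl (16.6 TPM), Per3 (4.92 TPM), Dbp (2.80 TPM) and Per2 (0.53 TPM). Clock alone was above the median of 38.1 TPM over the genes measured. Clock, Per1 and Cry2 are sums over several transcripts that share exons. Whether shared reads were divided among them cannot be checked from the table. By the leading transcript of each gene, Clock was still first at 44.6 TPM, and Per1 moved behind Cry2 (10.7 TPM) to 10.2 TPM. With 1 library per pool, neighbours in this order such as Nr1d1 and Nr1d2 cannot be separated from library error.

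**Figure D1:**
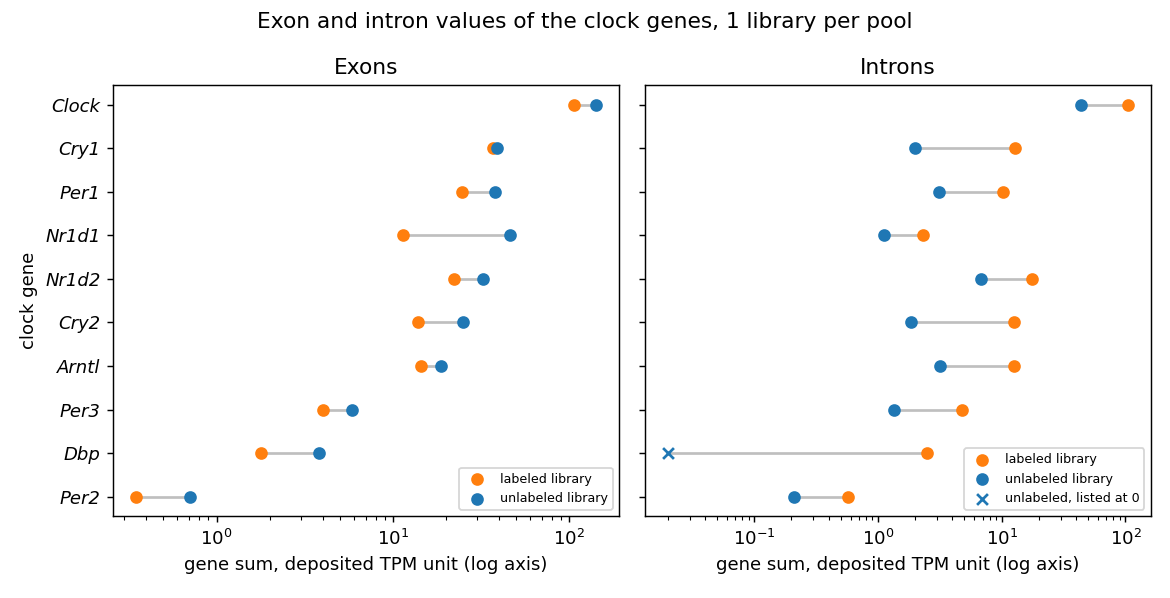
Exon values (left) and intron values (right) of the 10 clock genes in the labeled library (orange) and the unlabeled library (blue), in the deposited TPM unit on log axes; each point is 1 library and the cross marks the intron value of Dbp that is listed at 0. Exon values were lower in the labeled library for every gene, by the least in Cry1 and by the most in Nr1d1, where 41.3% of all genes were higher in the labeled library. Intron values were higher in the labeled library for every gene, as for the median of all genes, whose intron ratio was 3.90.

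The labeled to unlabeled exon ratio tells how much of a gene's exon RNA was new relative to the other genes of the libraries. Since each library is scaled to its own total, only the position among genes can be read. Over 14127 genes with a mean exon value above 1 TPM, the median ratio was 0.837 (quartiles 0.521 and 1.50). Of the 10 clock genes, 9 passed this filter, all but Per2. Their median was 0.817 times that of the median gene, and 8 of 9 lay below the median gene, with Cry1 the exception. The side was not fixed for 3 of them, as Cry1 was at 0.888 with all biotypes summed, Per1 at 1.04 by its leading transcript and Arntl at 1.02 with a minimum of 10 TPM. None of the 9 was 2-fold or more above the median gene, where 21.9% of all genes were. Nr1d1 was the 1 clock gene 2-fold or more below it, beside 14.8% of all genes.

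**Figure D2:**
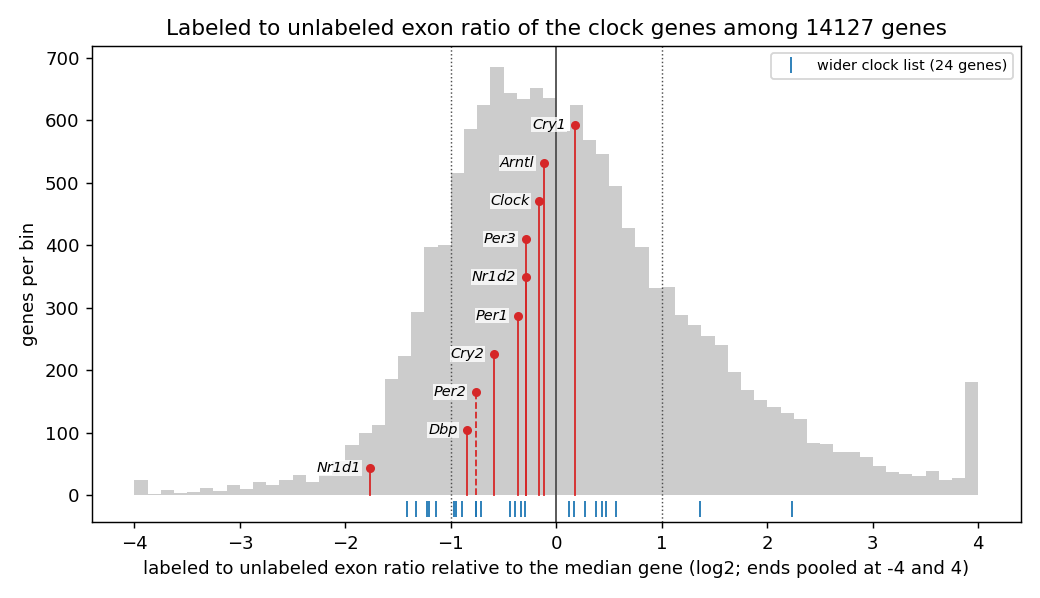
Histogram of the labeled to unlabeled exon ratio of 14127 genes relative to the median gene, on a log2 axis with genes per bin, with the 10 clock genes as red stems (dashed for Per2, which did not pass the filter) and the measured genes of the wider clock list as blue ticks; dotted lines mark 2-fold. Stem height only separates the names. Cry1 is right of the median gene (but at 0.888 times it with all biotypes summed), Nr1d1 is past the 2-fold line on the left, and the others lie between, of which Per1 and Arntl reach 1.04 and 1.02 times the median gene under another setting.

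The activators Clock and Arntl sat close to the median gene in the exon ratio but differed in level and in their introns. Clock, which encodes a histone acetyltransferase of the basic helix-loop-helix family (chromosome 5, 76209868 to 76304792, minus strand), had 106.1 TPM of exon in the labeled library and 141.6 TPM in the unlabeled library. Its introns had 103.9 TPM in the labeled and 43.6 TPM in the unlabeled library. Introns of Clock were thus almost as abundant as its exons in new RNA.

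The exon ratio of Clock was 0.749, or 0.895 times the median gene. Its unlabeled intron value was the highest of the 10 genes, and the labeled to unlabeled intron ratio was only 2.38, against a median of 3.90 over 13026 genes. The 3 Clock transcripts had nearly the same labeled exon value, 35.4, 35.2 and 35.5 TPM. Their unlabeled exon values spread more widely, at 53.8, 47.3 and 40.5 TPM for ENSMUST00000075159, ENSMUST00000202122 and ENSMUST00000202651.

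Arntl, the partner of Clock (chromosome 7, 113207465 to 113314126, plus strand), had 14.4 TPM of exon in the labeled and 18.7 TPM in the unlabeled library. Its introns had 12.6 TPM in the labeled and 3.19 TPM in the unlabeled library. In exon ratio, 0.773, and in intron ratio, 3.96, Arntl was near the median of all genes, at 0.923 times the median gene and with 51.2% of genes lower. Of its exon bases, 33 (1.13%) overlap Gm45355 on the opposite strand.

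Among the Per genes, which encode the PAS-domain repressors of the loop, Per1 was well above Per3 and Per2. Per1 (chromosome 11, 69095217 to 69109960, plus strand) had 24.7 TPM of exon in the labeled and 38.0 TPM in the unlabeled library. Its introns had 10.3 and 3.14 TPM. The exon ratio of 0.650 put Per1 at 0.776 times the median gene, with 36.8% of genes lower.

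The 5 transcripts of Per1 did not behave alike. ENSMUST00000101004, which starts farthest upstream, had exon values of 9.30 TPM labeled and 11.1 TPM unlabeled but intron values of only 0.92 and 0.06 TPM. ENSMUST00000102605, ENSMUST00000166748 and ENSMUST00000021271 had labeled introns between 2.78 and 3.38 TPM beside labeled exons between 4.92 and 5.24 TPM. The short ENSMUST00000132462 was listed at 0 in the labeled library and at 3.60 TPM in the unlabeled library. The labeled intron to exon ratio was therefore 0.0989 in the first and between 0.531 and 0.652 in the next 3, within the same gene.

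Per3 (chromosome 4, 151003652 to 151044665, minus strand) had 4.01 TPM of exon labeled and 5.83 TPM unlabeled. Its introns had 4.78 and 1.35 TPM, so that introns exceeded exons in labeled RNA. Its exon ratio of 0.688 was 0.822 times that of the median gene.

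Per2 (chromosome 1, 91415982 to 91459324, minus strand), a repressor that oscillates strongly in most tissues, had 0.35 TPM of exon labeled and 0.71 TPM unlabeled, with introns of 0.57 and 0.21 TPM. These values fell under the 1 TPM filter, and at this level its exon ratio of 0.493 carries little weight. Per2 was thus lower than Per3 and Per1 in both libraries and in both exons and introns.

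The cryptochromes Cry1 and Cry2 are flavoproteins that hold the Clock and Arntl dimer inactive. By gene sums, they had the highest labeled to unlabeled intron ratios of the clock genes, Dbp aside, which had no ratio. The leading Per1 transcript alone had a higher ratio, 15.3, on an unlabeled intron value of 0.06 TPM. Cry1 (chromosome 10, 85131700 to 85185064, minus strand) had nearly equal exon values, 37.0 TPM labeled and 38.9 TPM unlabeled. Its introns had 12.7 TPM labeled and 1.98 TPM unlabeled, a ratio of 6.41, with 84.7% of genes lower. Its exon ratio of 0.949 was the highest of the 10 genes, at 1.13 times the median gene.

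Cry2 (chromosome 2, 92403646 to 92434043, minus strand) had 13.9 TPM of exon labeled and 25.0 TPM unlabeled. Its introns had 12.7 TPM labeled and 1.85 TPM unlabeled. The intron ratio of 6.84 was the highest gene-sum ratio of the clock genes, with 87.3% of genes lower. The exon ratio of 0.556 was 0.664 times the median gene. The likeness of the intron values depended on the sum over 2 Cry2 transcripts. By the leading transcript, Cry2 had intron values of 6.37 TPM labeled and 1.09 TPM unlabeled, below those of Cry1. Cry2 had the lower exon values in both libraries.

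The 2 transcripts of Cry2 differed in exon RNA. ENSMUST00000090559 had 8.79 TPM labeled and 12.7 TPM unlabeled, and the shorter ENSMUST00000111278 had 5.11 and 12.3 TPM. Their introns, at 6.37 and 6.29 TPM in the labeled library, were almost the same. The exon ratios were 0.694 and 0.414. An overlap of 149 exon bases (3.43%) with D930015M05Rik lies on the opposite strand.

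The nuclear receptors Nr1d1 and Nr1d2, known as REV-ERB alpha and beta, had similar mean exon levels and a different balance of labeled and unlabeled RNA. Nr1d1 (chromosome 11, 98767932 to 98775333, minus strand) had 11.4 TPM of exon labeled against 46.1 TPM unlabeled, the second highest unlabeled exon value of the 10 genes. Its exon ratio of 0.247 was the lowest, at 0.295 times the median gene, and only 3.26% of genes were lower. Its introns were also scarce, with 2.30 TPM labeled and 1.12 TPM unlabeled, and the intron ratio of 2.05 had 11.8% of genes lower.

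Exon RNA of Nr1d1 overlaps Thra on the opposite strand over 263 bases, or 9.67% of its exon bases. Thra, the thyroid hormone receptor alpha gene, had 19.1 TPM labeled and 28.7 TPM unlabeled. Whether the libraries kept the strand is not given in the sources used here, and the part of Thra reads in the Nr1d1 values was not tested.

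Nr1d2 (chromosome 14, 18204054 to 18239127, minus strand) had 22.2 TPM of exon labeled and 32.4 TPM unlabeled. Its introns had 17.7 TPM labeled and 6.80 TPM unlabeled. The exon ratio of 0.684 was 0.817 times the median gene, and the intron ratio of 2.60 had 21.2% of genes lower. In new RNA Nr1d2 was thus above Nr1d1 in exons and introns, and in preexisting exons it was below.

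The output gene Dbp (chromosome 7, 45705088 to 45710203, plus strand), a PAR-domain bZIP factor, was low, with 1.78 TPM of exon labeled and 3.82 TPM unlabeled. Its introns had 2.5 TPM in the labeled library and were listed at 0 in the unlabeled library, so no intron ratio was formed. The exon ratio of 0.466 was 0.557 times the median gene. Of its 1837 exon bases, 539 (29.3%) overlap Sphk2 on the opposite strand, which had 24.5 TPM labeled and 24.9 TPM unlabeled, several times the level of Dbp. The part of Sphk2 reads in these values was not tested.

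The intron to exon ratio of each library was used next, since it does not depend on how the libraries were scaled to each other. Among 13026 genes with all values above 0, the labeled ratio had a median of 0.577 and quartiles of 0.297 and 1.13. The unlabeled ratio of these genes had a median of 0.122 and quartiles of 0.0488 and 0.346. The 8 clock genes that passed this filter, all but Per2 and Dbp, had a median of 0.836 in labeled and 0.127 in unlabeled RNA. The labeled ratio was above the median gene in 5 of 8 and the unlabeled ratio in 4 of 8.

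In labeled RNA the ratio was 1.19 in Per3, 0.979 in Clock, 0.911 in Cry2, 0.874 in Arntl, 0.797 in Nr1d2, 0.417 in Per1, 0.344 in Cry1 and 0.202 in Nr1d1. In unlabeled RNA it was 0.308 in Clock, 0.232 in Per3, 0.210 in Nr1d2, 0.171 in Arntl, 0.0827 in Per1, 0.0740 in Cry2, 0.0509 in Cry1 and 0.0243 in Nr1d1. By these gene sums, Nr1d1 and Cry1 were lowest in both libraries. By the leading transcript, Per1 was lowest in both, at 0.0989 labeled and 0.00542 unlabeled. Cry2 was high in labeled and low in unlabeled RNA, with the labeled ratio 12.3 times the unlabeled ratio, against 3.18 times in Clock. A labeled ratio of 1 or more was found in 1 of 8 clock genes, Per3, beside 28.9% of all genes. This count ran from 0 with a minimum of 10 TPM to 4 after subtracting leakage, so it sets the clock genes neither above nor below the other genes. Dbp, with a labeled ratio of 1.40, was not counted because its unlabeled intron value was listed at 0.

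**Figure D3:**
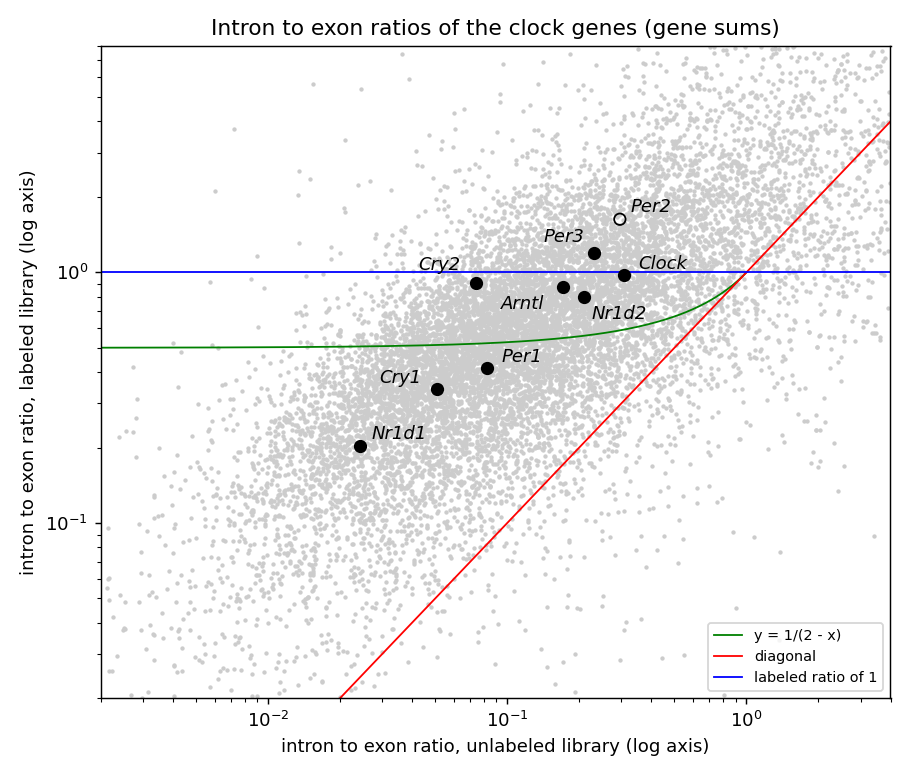
Intron to exon ratio of the labeled library against that of the unlabeled library, on log axes, for the genes with all values above 0 (grey) and the clock genes (black; open for Per2, below the filter). Per3 and Per2 lie above the blue line at 1, Clock just under it, and Per1, Cry1 and Nr1d1 lie below the green line under which the rate equations can have several solutions or none.

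In the model of RNA dynamics used by the study, premature RNA is synthesized, processed into mature RNA and degraded at constant rates. The labeled and unlabeled intron to exon ratios then give equations for the processing and degradation rates. Their conditions are that the labeled ratio is under 1 and above the unlabeled one. A transcript that meets them can have 1 solution, 2 or none. A solution is unique above the line at which the labeled ratio is 1 divided by the difference of 2 and the unlabeled ratio. Of the 17 clock transcripts, 6 lay above this line, 4 lay below it, 5 had a labeled ratio of 1 or more and 2 had a value of 0. Among the 14 that passed the filter, 4 (28.6%, 95% Wilson interval 11.7 to 54.6%) had a labeled ratio of 1 or more. The share over all 31386 transcripts was 28.2%. The interval covers the number of transcripts only, and transcripts of a gene share exons.

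Rates could be computed for a transcript of 7 genes, taking the one with the highest exon level that met the conditions. Where the equations had no solution, the misfit was made smallest along a relation between the rates taken from the equations, as in the study. A unique solution was found for Arntl, Cry2, Nr1d2 and Clock (ENSMUST00000202651). Their degradation half-lives were 90.6 min for Arntl, 52.7 min for Cry2, 32.7 min for Nr1d2 and 27.0 min for Clock. The processing half-times were 24.5, 9.74, 13.8 and 13.1 min in the same order. All 4 half-lives were longer than the median of 19.0 min (quartiles 10.1 and 41.1 min) over 20920 transcripts. That median pools 7143 transcripts with 1 solution, 1806 with 2 and 11971 with none. It is thus not a median of transcripts with a unique solution, and does not place these 4 among their like.

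No solution existed for the leading transcripts of Per1, Nr1d1 and Cry1, as for 11971 of the 20920 transcripts. The values of smallest misfit along that relation were half-lives of 36.4 min for Per1, 20.3 min for Nr1d1 and 9.53 min for Cry1. The misfit on the natural log scale was 1.32 for Per1, 0.848 for Nr1d1 and 0.377 for Cry1, against a median of 0.744. Processing half-times of these 3 were 2.20, 2.85 and 2.84 min, below those of the clock genes with a unique solution. They also depended on how the ratios were read, from 0.670 to 2.84 min in Per1 and from 1.35 to 3.01 min in Nr1d1.

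The other Per1 transcripts gave half-lives of 15.9 min (ENSMUST00000102605), 16.9 min (ENSMUST00000166748) and 6.16 min (ENSMUST00000021271). The last had 2 solutions, and the one nearest to the median rates is given, while the other was 0.252 min. The Per1 value thus turned on the transcript. Per2, Per3 and Dbp got no rates.

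The half-lives also depended on how the ratios were read. Subtracting an estimated leakage of unlabeled RNA into the labeled library raised Cry2 to 225.2 min, Nr1d2 to 210.0 min and Clock to 80.4 min, and left Arntl outside the conditions. The same subtraction lowered Per1 to 30.6 min, Nr1d1 to 15.6 min and Cry1 to 5.14 min. Reading the unlabeled library as total RNA gave higher values for all 7 genes, among them 122.9 min for Per1, 54.2 min for Nr1d1 and 45.3 min for Cry1. A fit over both variables of the equations was not held to that relation, so it can come at least as close to both ratios. It lowered the same 3 genes to 6.39, 4.15 and 3.16 min. The order of the clock genes by half-life was therefore not fixed by these libraries.

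**Figure D4:**
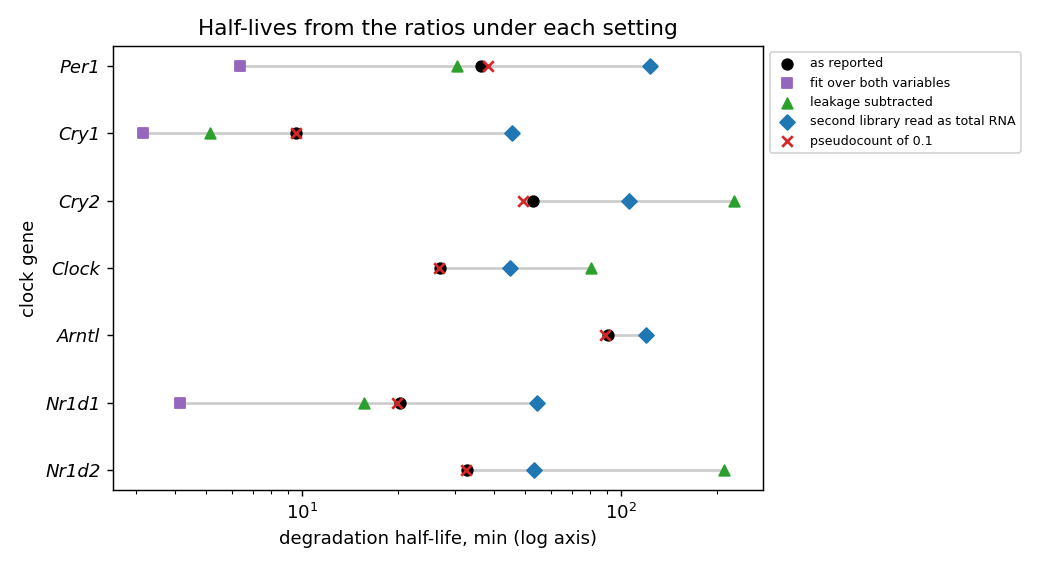
Degradation half-life in min, on a log axis, for 7 clock genes under each reading of the ratios (black circles are the values as reported in the text; leakage subtracted means that an estimated share of the unlabeled value was taken off the labeled one). Arntl spans 88.7 to 119.7 min over 3 readings, and Per1, Cry1 and Nr1d1, which had no exact solution, span the widest ranges. Only these genes had a fit over both variables, and it gave the lowest value of each. Without that fit Nr1d1 spans 15.6 to 54.2 min, beside 32.5 to 210.0 min for Nr1d2.

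Transcript features differed widely among the clock genes. The leading transcript held 2151 uridines in Clock, 1460 in Per3, 605 in Nr1d1 and 357 in Dbp, against a median of 555 over 13697 genes. Across those genes, which share both libraries, the number of uridines and the exon ratio had a Spearman correlation of -0.31, and spliced length had -0.30, given as a description. Nr1d1, with 22.2% uridine and 2721 spliced bases, was near the medians of 24.1% and 2333 bases, and Clock, with 28.8% and 7478 bases, was above both.

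By distance on the natural log of all 4 values, the genes most like Cry1 were Cenpq (0.203), Actr8 (0.204) and Hsdl2 (0.241). The genes most like Nr1d1 were Flii (0.454), Celsr2 (0.487) and Spock2 (0.510). The distances cover 2 libraries and were larger for Nr1d1 than for Cry1.

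A wider list of 26 clock-related genes, among them paralogs, kinases and ubiquitin ligases that act on Per and Cry, was read in the same way. Of 24 that passed the exon filter, 15 lay below the median gene, 2 were 2-fold or more above it (Rora and Rorb, beside 21.9% of all genes) and 5 were 2-fold or more below it (Csnk1e, Fbxw11, Hlf, Sirt1 and Sfpq, beside 14.8%). Their median was 0.749 times the median gene. A labeled intron to exon ratio of 1 or more was found in 6 of 22, beside 28.9% of all genes.

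Among those with at least 10 TPM, Tipin, a partner of Timeless, was at 1.29 times and Btrc at 1.21 times the median gene in exon ratio, both among the 3 highest. The ratio was lowest in Hlf at 0.374, Sfpq at 0.398 and Fbxw11 at 0.428 times the median gene. Fbxw11 and Btrc, paralogous ligase subunits that act on Per proteins, thus stood on opposite sides of the median gene.

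Paralogs of the members differed from them in level. Npas2, a paralog of Clock, had 0.63 TPM labeled and was listed at 0 in the unlabeled library. Arntl2, a paralog of Arntl, had 17.8 TPM labeled and 34.9 TPM unlabeled and was thus higher than Arntl in both libraries. That value of Arntl2 is a sum over 4 transcripts, where Arntl had 1, and leading transcripts were not compared. Hlf and Tef, relatives of Dbp, had 9.70 TPM labeled with 31.0 TPM unlabeled and 10.8 TPM labeled with 8.67 TPM unlabeled, all above Dbp. These are sums over 2 transcripts of Hlf and 4 of Tef, where Dbp had 1. The exon ratio was 0.374 times the median gene in Hlf and 1.48 times in Tef.

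Other regulators of the loop differed in level. Ciart, which binds the Clock and Arntl dimer, had 62.8 TPM labeled and 98.6 TPM unlabeled. Its mean of 80.7 TPM, a sum over 6 transcripts, was above the median of 38.1 TPM over the genes measured. Bhlhe40 had 12.3 TPM labeled and 24.9 TPM unlabeled, and Bhlhe41 had 4.14 and 3.56 TPM. Nfil3, which competes with Dbp for D-boxes, had 3.21 TPM labeled and 3.41 TPM unlabeled, close to the level of Dbp. Rora, which competes with Nr1d1 for ROR elements, had 6.34 TPM labeled and 1.61 TPM unlabeled, 4.70 times the median gene in exon ratio, at a low level.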

How the data were processed

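Labeled and unlabeled RNA after a 10 min pulse of 4sU were each measured in 1 library of replicate 1. The authors removed ribosomal reads, aligned the rest to sequences of exons and introns with STAR 2.5.0 and RSEM, per the labels, and deposited values called TPM for the exons and introns of each transcript. Strand handling is not given in the sources used here. Each deposited TPM column sums to 10 times the usual total. The values are relative abundances without read counts, so tests for counts were not used and depth is unknown.

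Biotypes and coordinates were taken from GENCODE M21 (GRCm38) and upstream windows from RefSeq. Values were summed over the protein-coding transcripts of a gene, and genes needed a mean exon value above 1 TPM. Exon ratios were set relative to the median gene. Rates came from the equations of the study (4000 grid points, labeling time of 10 min). The solver was tested on ratios simulated from the same equations without noise, which checks the solver and not the half-lives. No test was made, for want of replicates. Alternatives were no filter, a minimum of 10 TPM, a pseudocount of 0.1, the leading transcript, all biotypes, and subtraction of leakage (0.139 times the unlabeled value, the 1st percentile of the exon ratio).

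The clock genes and lists were chosen with earlier results of these data known. All 10 clock genes were named, and of 26 wider genes the 3 highest and 3 lowest exon ratios at 10 TPM or more and 9 genes with a role paired to a member. Wider genes past 2-fold were also named, after their values were seen. A result that this rule names is not reported here. The 3 nearest genes were given for the clock genes with the highest and the lowest exon ratio. Scripts ran in Python 3.11.15 with scipy 1.17.1, numpy 2.4.6 and pandas 2.3.3, and figures were drawn with matplotlib 3.10.9.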

Additional observations from a re-analysis of the deposited data

How the results depend on the processing

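No paired analysis was possible because the libraries form just 1 pair, and the labeled to unlabeled ratio is already the value within that pair. Of 46 alternatives for medians, shares and counts, 38 stayed within 1.5 times the value as reported (counts) or inside its interval over the clock genes or transcripts (medians and shares), 8 moved and 0 reversed. With so few genes that interval is wide, and the median unlabeled intron to exon ratio, 0.127, stayed inside it although it went to 0.0827 with a minimum of 10 TPM. The number of clock genes with a labeled intron to exon ratio of 1 or more, 1 as reported (Per3), was 2 without a filter, 2 with a pseudocount, 2 with the leading transcript, 3 with all biotypes, 4 after subtracting leakage and 0 with a minimum of 10 TPM, which removes Per3. The number 2-fold or more below the median gene, 1 as reported (Nr1d1), was 2 with all biotypes and 2 after subtracting leakage, with Dbp added in both. The median exon ratio relative to the median gene, 0.817, lay between 0.729 and 0.903. Relative to the median gene, Cry1 ranged from 0.888 (all biotypes) to 1.25, Per1 from 0.614 to 1.04 and Arntl from 0.723 to 1.02, so their side of the median gene depended on the setting, and Nr1d1 ranged from 0.154 to 0.429. Of 23 alternatives for half-lives, 13 moved the value by over 1.5 times. The cause was not tested. Without read counts and without replicates, low values such as those of Per2 and Dbp have no known error.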

Other observations

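Isoforms of the clock genes that are not annotated as protein-coding were read in the same way. The table holds 13 such transcripts of 7 clock genes, and 11 had exon values above 0 in both libraries. Exon values were higher in the labeled library in 6 of these 11, and in 0 of 16 coding transcripts with values in both libraries. Shares over all genes with coding transcripts were taken among transcripts with a mean exon value above 1 TPM. The labeled value was higher in 37.5% of 33401 coding and in 49.0% of 23764 other transcripts. With the same filter it was higher in 6 of 11 other clock transcripts (54.5%), near the share of their kind. Among coding clock transcripts it was higher in 0 of 15, below the share of their kind. Those of Per1, Clock and Cry2 share exons within each gene, so the 15 are not separate observations. The direction between the kinds was that of all genes, and none of this was tested. These transcripts were looked at after the coding values had been seen, and they share exons and introns with the coding ones.

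The retained-intron transcript ENSMUST00000201052 of Clock had 26.6 TPM labeled and 3.33 TPM unlabeled, 9.53 times the median gene. Another Clock transcript, ENSMUST00000200957, had 27.7 TPM labeled and 11.1 TPM unlabeled. Clock's other retained-intron transcript, ENSMUST00000202857, went the other way, with 18.9 TPM labeled and 28.9 TPM unlabeled (0.781 times the median gene), as did ENSMUST00000142392 of Per1 (0.808 times) and ENSMUST00000138052 of Per3 (0.673 times). In Cry2, ENSMUST00000125488 had 16.2 TPM labeled and 6.46 TPM unlabeled, above the labeled values of both coding transcripts. In Nr1d1, ENSMUST00000139220 had 11.7 TPM labeled and 4.19 TPM unlabeled, where the coding transcript had 11.4 and 46.1 TPM. With all biotypes summed, Nr1d1 stood at 0.429 times the median gene in place of 0.295. How reads were divided between overlapping isoforms is not given in the sources used here, and its part in these values was not tested.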
